A study of Mus musculus with 2 samples.

Results

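The T-box genes Tbx2, Tbx3, Tbx4, Tbx5, Tbx15 and Tbx18 and the homeobox gene Pitx1 were followed in RNA-seq of mouse distal forelimbs at E12.5, the part of the limb that gives the digits. They were picked by symbol as the T-box genes of the limb together with the genes that tell forelimb from hindlimb, and all 7 were found among the 23157 genes of the deposited table, as 14 of its 64053 transcripts. One library came from wild-type limbs and the other from limbs carrying HoxD Inv(TpSB1-Itga6), an inversion of 2.4 Mb on chromosome 2. Both are labeled C57Bl6CBAF1 and distal limb, although the title of the wild-type sample reads wtFL where its column reads wtDFL, and each was prepared from a pool of 3 pairs of forelimbs. The study analyzed its inversions in homozygous embryos, and the comparison asks which transcripts differ when the regulatory landscape next to the HoxD cluster is reorganized. None of the 7 genes lies on chromosome 2. As each genotype had 1 pool, the differences below lack a check by replicates. All 95% intervals cover counting error only, and they compare the 2 libraries rather than the genotypes.

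T-box proteins are transcription factors that bind DNA through the T-box, a domain shared by the whole family. In the limb, Tbx5 starts outgrowth of the forelimb and Tbx4 takes part in that of the hindlimb, where Pitx1 lies upstream of it and gives the limb its hindlimb character. Tbx2 and Tbx3 are mainly repressors, known from the anterior and posterior margins of the limb bud and, for Tbx3, from digit formation, while Tbx15 and Tbx18 are a related pair active in limb mesenchyme and in the skeleton of the limb girdles.

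The deposited values, here called normalized reads, are reads per transcript scaled by the size factor of their library. They came from 9280660 wild-type reads and 9466154 inversion reads. The 16756 genes that averaged 10 or more normalized reads were tested. Their median log2 ratio of inversion over wild type, taken with a pseudocount of 1, was -0.02. Markers of the tissue were present in both libraries: the 5 limb mesenchyme genes (Prrx1, Prrx2, Twist1, Lhx9 and Msx1) summed to 8885 normalized reads in wild type against 8545 in the inversion. The pools differed in embryo sex markers. The 4 Y-linked genes Ddx3y, Eif2s3y, Kdm5d and Uty had log2 ratios of 1.45 to 2.13, and Xist went from 2607 reads to 13. Embryo sex and genotype cannot be told apart in any result below.

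Levels of different genes were compared per kilobase of transcript. Tbx5 was the most abundant of the 7 genes in both libraries. It had 427 normalized reads per kilobase in wild type (95% interval 407 to 448) and 491 in the inversion (95% interval 469 to 513). This level was above that of 87.0% of the 17526 genes ranked in wild type and above that of 90.1% of the 18324 genes ranked in the inversion, so that the forelimb gene stood in the upper part of the distribution in each library.

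Tbx15 followed, with 373 normalized reads per kilobase in wild type and 348 in the inversion. Tbx18 had 270 and 323. In wild type the intervals of Tbx15 (353 to 394) and Tbx18 (255 to 285) were apart, whereas in the inversion those of Tbx15 (329 to 368) and Tbx18 (307 to 340) overlapped.

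Tbx3 had 169 normalized reads per kilobase in wild type and 211 in the inversion. Tbx4 had 145 and 130, and Tbx2 had 98.3 and 123. The intervals of Tbx3 (156 to 183) and Tbx4 (131 to 159) overlapped in wild type, and those of Tbx4 (117 to 143) and Tbx2 (111 to 134) in the inversion. The place of Tbx3 depends on how its length is taken. Of its transcripts, 2 are short and 1 has no length in the annotation used. The reads of the latter, 112 of 617 in wild type and 137 of 769 in the inversion, are left out of these levels. For these reasons the intervals of Tbx3, scaled from all its reads, are too narrow. With all its reads divided by the length of its longest transcript, Tbx3 had 125 in wild type and 152 in the inversion. Tbx4 had 138 and 123 by its longest transcript, and was then the higher of the pair in wild type.

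Pitx1 was far below the others, with 18.2 normalized reads per kilobase in wild type (95% interval 13.2 to 24.4) and 11.7 in the inversion (95% interval 7.83 to 16.8). It exceeded 31.1% of the ranked genes in wild type and 26.9% in the inversion.

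**Figure D1:**
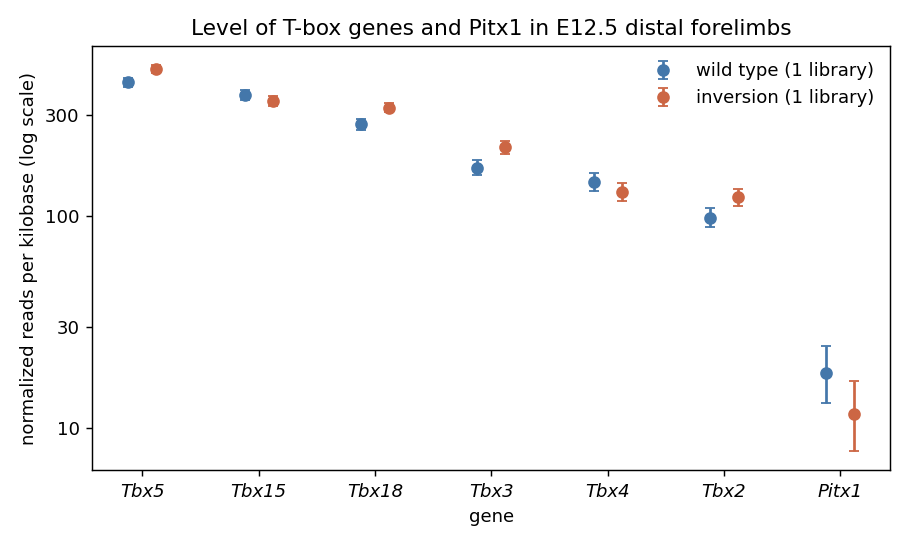
Normalized reads per kilobase of transcript (vertical axis, log scale) of the 7 genes, with wild type in blue and the inversion in orange. Error bars are 95% Poisson intervals of the reads of a gene in 1 library, scaled to its level. Those of Tbx3 are too narrow, as its transcripts differ in length, and its level leaves out 1 transcript without a length. Tbx5 is at the top in both libraries (427 and 491), Pitx1 at the bottom (18.2 and 11.7), and the points of Tbx2, Tbx3, Tbx5 and Tbx18 are higher in the inversion.

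The forelimb gene and the hindlimb genes were then set against each other. Tbx5, located on chromosome 5 from 119832668 to 119885219 (GENCODE M21 on GRCm38), had 1684 normalized reads in wild type against 1935 in the inversion. Its log2 ratio was 0.20 (95% interval 0.11 to 0.30), a value 1.15 times that of wild type. Tbx5 is counted on 1 transcript, so its value does not depend on how reads were divided among isoforms.

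Tbx4 (chromosome 11, 85886422 to 85916097) had 435 normalized reads in wild type against 389 in the inversion. The log2 ratio of -0.16 had a 95% interval of -0.36 to 0.04. A difference in Tbx4 as a whole was thus not detectable at this depth. Per kilobase, Tbx5 exceeded Tbx4 by 2.96-fold in wild type and by 3.78-fold in the inversion.

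Pitx1 (chromosome 13, 55825051 to 55836192) had 44 reads in wild type against 29 in the inversion, or 44.6 and 28.6 normalized reads. The log2 ratio was -0.62, the value farthest from 0 among the 7 genes, but with this few reads its interval ran from -1.37 to 0.07. Per kilobase, Tbx5 was 23.5-fold above Pitx1 in wild type and 42.0-fold above it in the inversion.

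Of the reads of Pitx1, Tbx4 and Tbx5 together, the hindlimb genes Pitx1 and Tbx4 took 22.2% in wild type (474 of 2137, exact 95% interval 20.4 to 24.0) and 17.8% in the inversion (423 of 2382, exact 95% interval 16.2 to 19.4). The intervals of the 2 libraries did not overlap, and the log2 odds ratio was -0.40 (95% interval -0.62 to -0.19). The same reads of Tbx5 enter this share and its own ratio, so the share is no separate evidence. Most of the hindlimb reads belonged to Tbx4. Against Tbx5 alone, Tbx4 took 20.5% of the reads of the pair in wild type and 16.7% in the inversion, with a log2 odds ratio of -0.36 (95% interval -0.59 to -0.14).

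Hoxc10 and Hoxc11, HoxC genes known for their use in the hindlimb, complete the hindlimb markers. Hoxc10 had 77.0 normalized reads in wild type against 55.3 in the inversion (log2 ratio -0.47, 95% interval -1.0 to 0.04). Hoxc11 had 69.9 and 70.1. Of the 4 hindlimb markers, 3 had a log2 ratio below 0 and 1 above it, with a median of -0.32, and for each of the 4 the interval included 0. Their sum was 627 normalized reads in wild type against 543 in the inversion.

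Tbx5 is also a gene of the developing heart, so heart markers were read beside it. Of the heart list, Myl7 had 2 reads in wild type against 1 in the inversion, and Nppa and Tbx20 each had 1 and 0. Myh6, a myosin heavy chain, had 8 and 34 reads. Nkx2-5 was not analysed here. The log2 ratio of Myh6 was 1.93 (95% interval 0.91 to 3.37). Myh6 passed the filter on low values only through the inversion library, with 8.10 normalized reads in wild type against 33.6 in the inversion. Summed over the list, heart markers had 12 and 35 reads, against 1663 and 1959 of Tbx5, and their part in the Tbx5 result was not tested.

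The repressors Tbx2 and Tbx3 were both higher in the inversion library. Tbx2 (chromosome 11, 85832551 to 85841948) had 356 normalized reads in wild type against 444 in the inversion, and its log2 ratio was 0.32 (95% interval 0.11 to 0.52). Tbx3 (chromosome 5, 119670669 to 119684724) had 625 against 759, which gave a log2 ratio of 0.28 (95% interval 0.13 to 0.44). The balance between them stayed close: Tbx2 took 36.3% of the reads of the pair in wild type against 36.9% in the inversion, and the log2 odds ratio of 0.04 had a 95% interval of -0.22 to 0.30.

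For Tbx15 and Tbx18 the balance differed. Tbx18 (chromosome 9, 87702800 to 87731260) had 1263 normalized reads in wild type against 1513 in the inversion, which gave a log2 ratio of 0.26 (95% interval 0.15 to 0.37). Tbx15 (chromosome 3, 99240381 to 99354259) had 1331 and 1240, a log2 ratio of -0.10 with a 95% interval of -0.21 to 0.01. Tbx15 thus took 51.3% of the reads of the pair in wild type (exact 95% interval 49.4 to 53.3) and 45.1% in the inversion (exact 95% interval 43.2 to 46.9). The log2 odds ratio was -0.36 (95% interval -0.52 to -0.20). This share reuses the reads of the single-gene ratios of Tbx15 and Tbx18 and is no separate evidence.

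Counted together, 4 of the 7 genes (Tbx2, Tbx3, Tbx5 and Tbx18) had an interval above 0, and among all genes tested 16.7% did. For none of the 7 did the interval lie below 0, against 13% of all genes tested. Their median log2 ratio was 0.20. An exact binomial test on the reads of the 2 libraries, with Benjamini-Hochberg adjustment over all genes tested, called the same 4 genes higher at an adjusted p under 0.05, with values from 3.36e-05 for Tbx18 to 0.0130 for Tbx2. By this exact test 12.3% of all genes were called higher and 7.87% lower, and it compares the 2 libraries and not the genotypes.

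The differences were small. None of the 7 genes was 2-fold higher, where 3.99% of all genes were, and none was 2-fold lower, where 0.483% were. Of all genes tested, 23.3% had a log2 ratio at least as far from 0 as that of Tbx2, 37.3% as that of Tbx5 and 10.4% as that of Pitx1. Among the 11831 genes that averaged 100 or more normalized reads, the central 90% of log2 ratios ran from -0.28 to 0.51. The ratios of all 6 T-box genes fell inside this range. Pitx1, which averaged 36.6, was not among these genes. Over all genes tested the central 90% ran from -0.36 to 0.88, and the -0.62 of Pitx1 lay below it, with an interval that included 0.

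**Figure D2:**
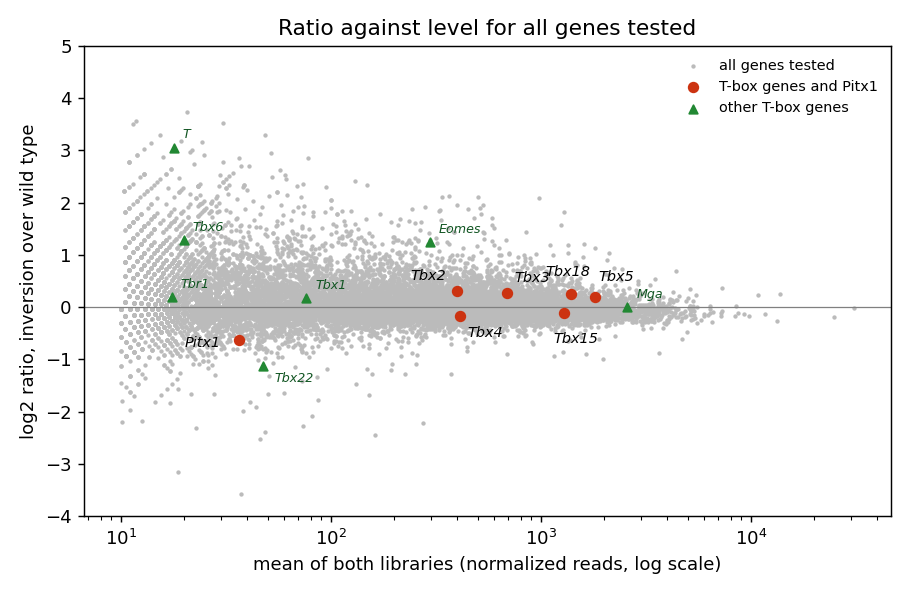
Log2 ratio of inversion over wild type (vertical axis) against the mean of both libraries in normalized reads (horizontal axis, log scale) for all 16756 genes tested in grey, with the 7 genes as red circles and other T-box genes as green triangles; 3 genes lie outside the vertical axis. The red points lie within the cloud of genes of like level, between -0.62 (Pitx1) and 0.32 (Tbx2).

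Markers of limb regions and of other cell types were read in whole lists. Among all genes tested, 16.7% had an interval above 0 and 13% one below 0. Of the 5 distal limb genes (Hoxa13, Hoxd13, Msx1, Lhx2 and Jag2), 3 had an interval below 0 and 2 an interval above 0, and their sum was 6445 normalized reads in wild type against 5345 in the inversion. Without Hoxd13, a gene of the HoxD cluster itself, the sum was 4153 against 3842. By the exact binomial test the 3 lower genes were called, while Hoxa13 and Jag2 were not (adjusted p = 0.159 and 0.132). Of the 5 proximal genes (Meis1, Meis2, Shox2, Irx3 and Irx5), Shox2 had an interval above 0, with a log2 ratio of 0.91, Meis2 and Irx3 had one below 0, and those of Meis1 and Irx5 included 0. Their sum was 1389 and 1528 with Shox2, and 1009 and 813 without it, a sum taken after the values were seen. By the exact binomial test Irx3 was not called (adjusted p = 0.106). The 5 genes of the apical ridge and ectoderm (Fgf8, Sp8, Krt5, Krt14 and Trp63) summed to 3915 and 3439 normalized reads, with an interval below 0 for Krt5 and Krt14 and one that included 0 for the other 3. Of the 4 muscle genes, Myog (155 and 268 reads) and Pax7 (7 and 36 reads) had intervals above 0, while those of Myod1 and Pax3 included 0, with a sum of 328 and 490. Pax7 passed the filter on low values only through the inversion library, with 7.09 normalized reads in wild type against 35.6 in the inversion. The part of these cell types in the T-box results was not tested. In libraries of whole tissue, fewer cells of a type and less RNA per cell cannot be told apart.

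The 6 T-box genes include 2 pairs of neighbors, each transcribed from the same strand. Tbx2 and Tbx4 lie 44.5 kb apart on chromosome 11, and Tbx3 and Tbx5 lie 148 kb apart on chromosome 5. On chromosome 11 the neighbors differed: Tbx2 took 45.0% of the reads of the pair in wild type and 53.3% in the inversion, with a log2 odds ratio of 0.48 (95% interval 0.19 to 0.77). On chromosome 5, Tbx3 took 27.1% and 28.2%, and the log2 odds ratio of 0.08 (95% interval -0.10 to 0.26) showed no detectable difference. These shares reuse the reads of the single-gene ratios above and are no separate evidence.

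Noncoding transcripts beside these genes had few reads. The antisense gene Tbx3os1, listed as Gm2301 in the deposited table and found through its transcript identifiers, had 18 reads in wild type against 23 in the inversion. Tbx3os2, listed as Gm16065, had 2 and 4. The gene 2610027K06Rik, on the opposite strand next to the start of Tbx2 and chosen for its position after its values were seen, had 13 and 19 reads. The interval of each log2 ratio included 0.

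Transcripts of the same gene were compared next, for Tbx4 and Tbx3. The 3 Tbx4 transcripts start at different exons and share the start of 6 downstream exons. ENSMUST00000108047, which begins farthest upstream at 85886422, had 65 reads in wild type against 22 in the inversion, a log2 ratio of -1.56 (95% interval -2.37 to -0.88). Its share of the reads of Tbx4 went from 15.1% (exact 95% interval 11.9 to 18.9) to 5.58% (3.53 to 8.33). This was the only one of the 14 transcripts at least 2-fold apart between the libraries.

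ENSMUST00000108045, which begins farthest downstream at 85896765, had 153 and 177 reads, and its share went from 35.6% (31.1 to 40.3) to 44.9% (39.9 to 50), with intervals that overlapped. ENSMUST00000000096 took 49.3% and 49.5%. Of the 3153 bases of ENSMUST00000108047 only 144 are in no other Tbx4 transcript. For ENSMUST00000108045 this holds for 246 of 2959, and for ENSMUST00000000096 for only 2 of 3011. Most bases of this gene thus lie in more than 1 transcript, and how the reads there were divided is not given in the sources used here.

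The start of ENSMUST00000108045 is the Tbx4 start in the RefSeq promoter table, and its promoter is shown as the one Tbx4 start for which the table holds a sequence. The window is chr11:85896515-85896814 on the plus strand of GRCm38.p6, from 250 bases before to 50 after the start. Capitals mark a match to TATAAA on the reverse strand, and the window has no match on either strand to GGTGTGA, the core of the T-box half-site, or to TAATCC, the site of bicoid-type homeodomain proteins such as Pitx1.
Tbx4 promoter: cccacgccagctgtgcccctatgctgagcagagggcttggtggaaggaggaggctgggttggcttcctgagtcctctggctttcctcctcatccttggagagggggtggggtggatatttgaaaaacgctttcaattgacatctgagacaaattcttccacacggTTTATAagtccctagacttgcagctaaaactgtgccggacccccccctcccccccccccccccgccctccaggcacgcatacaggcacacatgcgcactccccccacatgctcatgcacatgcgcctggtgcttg

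Among all 32851 promoters of the table, TATAAA was found on either strand in 13.6%, GGTGTGA in 3.98% and TAATCC in 7.06%. The Tbx4 window was 59.0% G or C, where the median promoter was 52.7%. Such matches describe the letters and not the use of a site.

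For Tbx3 no shift among its 6 transcripts was detectable. The most read one, ENSMUST00000079719, took 32.6% of the reads in wild type against 31.5% in the inversion, and the intervals of the 2 libraries overlapped for each of the 6. All 6 had a log2 ratio above 0, from 0.04 to 0.68, and each single interval included 0, so that the difference in Tbx3 was detectable only in the sum. The remaining 5 genes were counted on 1 transcript each.

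**Figure D3:**
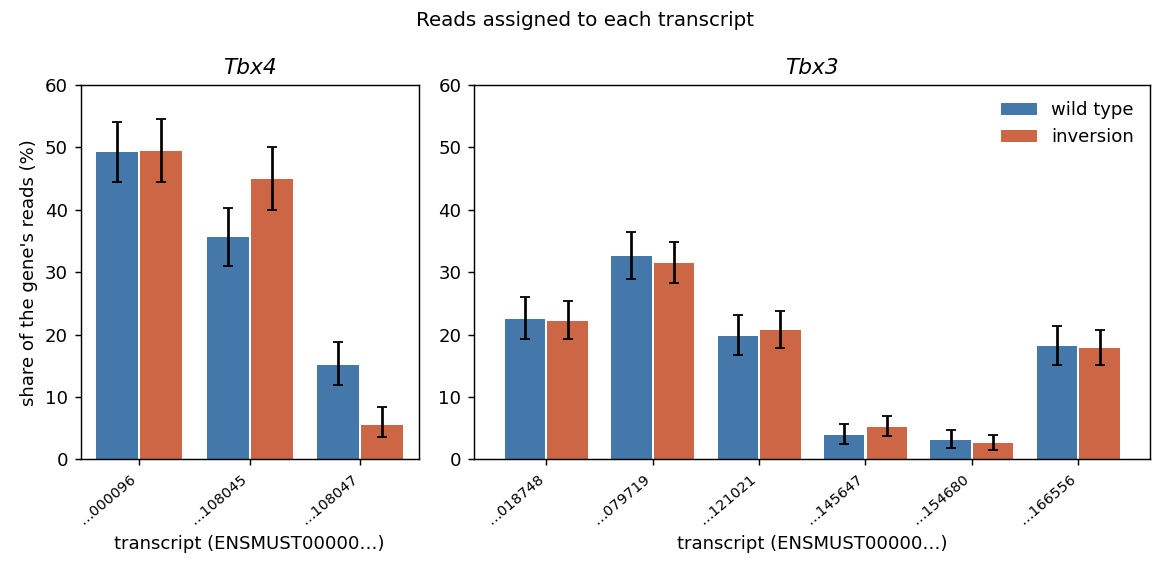
Share of the reads of the gene assigned to each transcript, in percent, for Tbx4 (left) and Tbx3 (right), with wild type in blue and the inversion in orange; error bars are exact 95% intervals. ENSMUST00000108047 of Tbx4 falls from 15.1% to 5.58%, while the error bars of both libraries overlap for each Tbx3 transcript.

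Sequence shared between these paralogs was short. The longest identical run between transcripts of any 2 of the 7 genes was 23 nucleotides, for Tbx4 with Tbx5 and for Tbx15 with Tbx18.

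Of 11 other T-box genes, 10 were found and 7 passed the filter on low values. Of these 7, 3 (T, Eomes and Tbx6) had an interval above 0, where 16.7% of all genes tested did. The same 3 passed a 2-fold increase, where 3.99% of all genes tested did. T passed the filter only through the inversion library, with 3.04 normalized reads in wild type against 32.6 in the inversion. T and Tbx6 averaged 17.8 and 19.9, and most 2-fold increases were at low averages. Of the 668 genes at least 2-fold higher, only 139 averaged 100 or more. For Tbx22 the interval lay below 0, and for the other 3 it included 0. The median log2 ratio was 0.20. T, or Brachyury, the founding gene of the family and a marker of early mesoderm and notochord, had 3 reads in wild type against 33 in the inversion, a ratio of 10.7 (95% interval 3.37 to 54.7). Eomes, a T-box gene known from early mesoderm, immune cells and cortical progenitors, had 172 and 422 reads, with a log2 ratio of 1.25 (95% interval 1.0 to 1.52). Both of its transcripts were higher, at 127 and 314 reads for the main one and at 45 and 108 for the other.

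Tbx6, which acts in paraxial mesoderm, had 11 and 29 reads (log2 ratio 1.29, 95% interval 0.32 to 2.51). Tbx22, an X-linked gene of palate formation, had 65 and 30 reads, a log2 ratio of -1.13 (95% interval -1.83 to -0.51). That decrease lay in ENSMUST00000087746 alone, with 49 and 6 reads, whereas the other 6 transcripts summed to 16 and 24, and over protein-coding transcripts only the log2 ratio of Tbx22 was 0.34.

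Mga, a large protein that pairs a T-box with a MAX-binding domain, had 2574 and 2578 normalized reads and a log2 ratio of 0.00 (95% interval -0.08 to 0.08). Tbx1 had 71 and 82 reads and Tbr1 had 16 and 19, with intervals that included 0. Tbx10, Tbx20 and Tbx21 had between 0 and 4 reads in each library, and Tbx19 was not analysed here.

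A list of 22 genes known upstream, downstream or beside T-box genes was read in the same way, and 18 of the 20 found passed the filter. Of these 18, 11 had a log2 ratio above 0, as had 46.6% of all genes tested, and the median was 0.04. The interval was above 0 for 4 of the 18, where 16.7% of all genes tested had one above 0, and below 0 for 3, where 13% did. By the exact binomial test 3 of the 4 were called, and En1 was not (adjusted p = 0.152).

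Among targets and partners in outgrowth, Fgf10, the mesenchymal growth factor that Tbx5 activates, had 710 normalized reads in wild type against 592 in the inversion (log2 ratio -0.26, 95% interval -0.42 to -0.10). It was lower while Tbx5 was higher, and a relation between them was not tested. Sall4, another gene downstream of Tbx5, had 88 and 81 reads, and its interval of -0.61 to 0.30 included 0. Sall1, a zinc finger gene of the same family, was higher, at 1268 and 1518 normalized reads (log2 ratio 0.26, 95% interval 0.15 to 0.37). Isl1, which acts before Tbx4 in the hindlimb, had 2 and 4 reads.

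In the anterior-posterior system, Gli3, the transcription factor through which hedgehog signals act in the limb, had 3554 and 2938 normalized reads (log2 ratio -0.27, 95% interval -0.35 to -0.20). Bmp2, a ligand of the BMP family, had 725 and 554 (log2 ratio -0.39, 95% interval -0.55 to -0.23). For Hand2, Grem1 and Bmp4 the log2 ratios were 0.13, 0.16 and -0.10, and each interval included 0. Shh was not analysed here.

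Genes repressed by Tbx2 or Tbx3 in other tissues were close to level. Gja1, which encodes a gap junction protein, had 2125 and 2111 normalized reads, with a log2 ratio of -0.01 (95% interval -0.10 to 0.08). Cdkn1a, a cell cycle inhibitor, had 238 and 230, with a log2 ratio of -0.05 (95% interval -0.32 to 0.22). Cdkn2a was not analysed here.

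Among genes of the limb girdle and of limb axes, Alx1 was the only one of the list at least 2-fold higher, with 12 and 32 reads (log2 ratio 1.31, 95% interval 0.38 to 2.47). Its relative Alx4, which acts at the anterior margin, had 361 and 456 reads (log2 ratio 0.30, 95% interval 0.10 to 0.50). En1, a gene of the ventral ectoderm, had a log2 ratio of 0.34 with an interval of 0.00 to 0.68. Lmx1b, which gives dorsal identity, had 1823 and 1835 normalized reads, and Emx2, a gene of the scapula, had 337 and 338. Pax1, another scapula gene, had 12 and 4 reads and did not pass the filter.

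**Figure D4:**
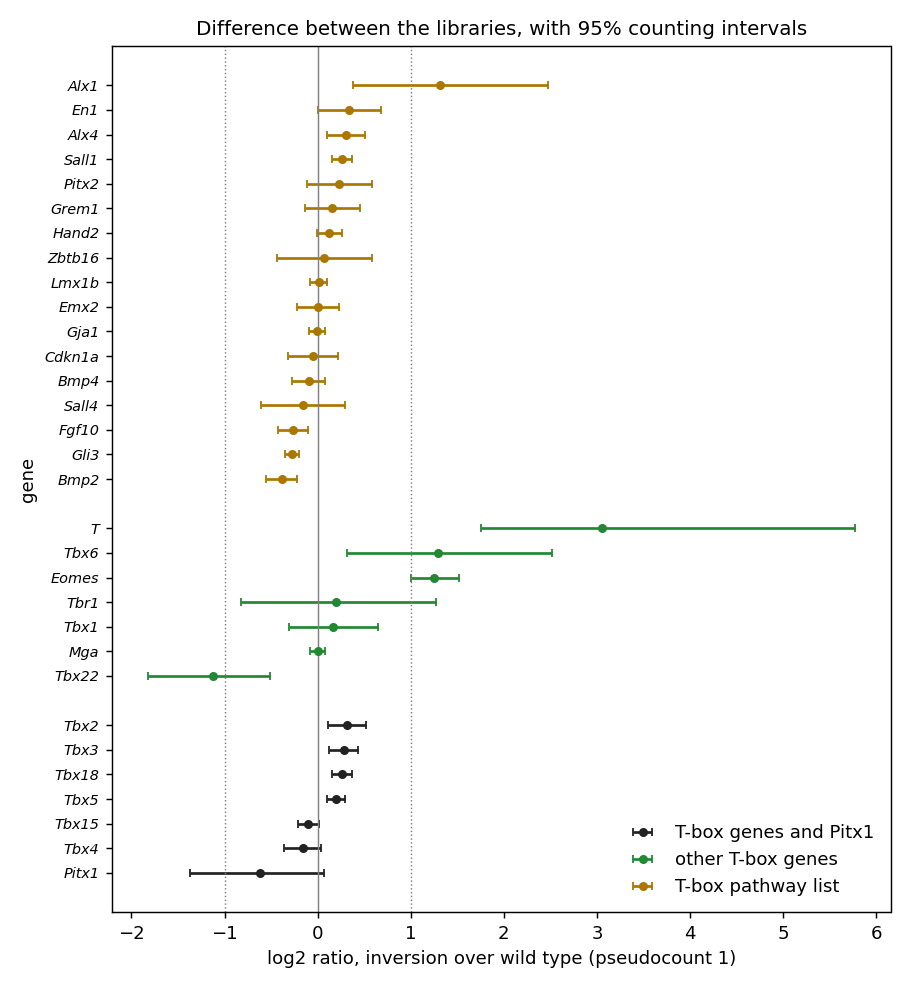
Log2 ratio of inversion over wild type (horizontal axis) with exact 95% counting intervals for the 7 genes (black), for other T-box genes (green) and genes of the T-box pathway list (yellow) that passed the filter; dotted lines mark a 2-fold difference. The 7 genes lie between -0.62 and 0.32, while T, Eomes, Tbx6 and Alx1 lie above 1 and Tbx22 below -1.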

How the data were processed

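Total RNA of E12.5 distal forelimbs was sequenced after poly(A) selection with a stranded protocol. The authors mapped the reads to NCBIM37 (mm9) with the HTSstation pipeline, and Bowtie2 is named in the submitters' processing notes. The deposited signal columns hold reads per transcript divided by a size factor, with 0.5 for no reads. The deposited ratio (fold), log2, p-value and adjusted p-value columns hold the authors' own comparison and were not used. Whether counting used the strand is not given in the sources used here.

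Whole reads were recovered from 100% of values above 0.5 (tolerance 0.011 after rescaling) and summed by symbol and chromosome. The tested genes averaged 10 or more normalized reads. Intervals are exact Clopper-Pearson (ratios, shares) or Poisson (reads of a gene, scaled to its level), and cover counting error only. For Tbx3 and Tbx4, whose transcripts were each divided by their own length, the scaled intervals are approximate. A 2-fold threshold was used. The exact binomial test was added after seeing the data, as recovered reads allowed it, and called 2068 genes higher and 1318 lower.

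GENCODE M21 (GRCm38) gave lengths and positions, matched by transcript identifier for 88.1% of transcripts and 13 of the 14 of these genes. Promoters are from RefSeq, which matched 2 of the 7 genes. The members, lists and naming rule (every member, listed genes past the filter, antisense partners by symbol) were chosen with earlier results of these data known. One gene of the pathway list is counted in its totals and not reported here by name. Alternatives were other scalings, pseudocounts, filters, thresholds, transcripts and lengths. The ratios and intervals were tested on simulated reads that held counting error only. Such reads lack variation between pools, so that test cannot show how the intervals fare with it. The scripts ran in Python 3.11.15 with scipy 1.17.1, numpy 2.4.6 and pandas 2.3.3, and figures were drawn with matplotlib 3.10.9.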

Additional observations from a re-analysis of the deposited data

How the results depend on the processing

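No paired analysis was possible because each genotype has a single library, and no replicate could be left out. All 42 values of the 7 genes under other scalings, pseudocounts and transcript choices had the direction of the main value. They also lay within its counting interval. Tbx2, Tbx5, Tbx15, Tbx18 and Pitx1 were counted on 1 transcript each, so the transcript choices could not move their values. This also holds for the other listed genes with 1 transcript. Of 150 values of the other listed genes, 148 lay within their counting intervals. Among these 148, 4 changed sign close to 0, namely Mga (-0.02), Lmx1b (-0.01) and Emx2 (-0.02) under upper quartile scaling and Emx2 (-0.02) over protein-coding transcripts only. The 2 values outside were both of Tbx22, whose log2 ratio was -2.87 with the transcript of highest mean and 0.34 over protein-coding transcripts only. ENSMUST00000087746, which carries its decrease, has no type in the annotation used and is left out there. The hindlimb share of the reads of Pitx1, Tbx4 and Tbx5 was 13.3% in wild type and 10.3% in the inversion with the transcript of highest mean, which leaves out part of Tbx4, and 27.6% and 22.4% per kilobase, so its direction held. The level of Tbx3 per kilobase moved to 125 and 152 with the length of the longest transcript. The counts of all genes at least 2-fold higher and lower, 668 and 81, were 1992 and 1089 without the filter, 139 and 12 where the minimum mean was 100, and 1577 and 341 at 1.5-fold. Over protein-coding transcripts only, 412 were higher. Depth limits Pitx1, T, Tbx6 and Alx1, which have few reads.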
